A study of Homo sapiens with 4 samples.

Results

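The RBM genes, named for the RNA-binding motif of their proteins, were taken as every row of the deposited table whose symbol is RBM followed by a digit. The rule found 38 genes of 19389, among them RBM14-RBM4, a readthrough transcript that joins RBM14 to its neighbour RBM4. RNA was measured in 2 groups of 2 libraries of SW620 cells, a long-established line of human colorectal cancer. H2O2-treated cells spent 2 days with hydrogen peroxide, which oxidises cell components, at 150 µM by the sample labels and 150 mM by the design text of the series, so the unit is stated in 2 ways. Control cells were SW620 cells labelled only as controls. No genetic change or other agent is given for either group, and the series title calls the exposed cells senescent. The comparison asks which mRNAs differ between exposed and control cells.

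Most RBM proteins carry an RNA recognition motif, a fold that binds single-stranded RNA, and they act at nearly every step in the life of an mRNA. Some belong to the spliceosome or help it choose splice sites, others mark exon junctions, recruit the enzymes that methylate adenosine in RNA, hand transcripts to the nuclear exosome for decay, or work in the nucleolus on ribosomal RNA. Some are known in cancer and stress biology: RBM5 and RBM10 change the splicing of genes that control apoptosis and growth, RBM38 binds the mRNA of a cell-cycle inhibitor, and RBM3 is induced by cold. Several of these genes are regulated by splicing of their own transcripts, which a gene-level value does not show.

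Levels are given as FPKM as the authors deposited it, which counts sequenced fragments relative to transcript length and library size, so levels of different genes are comparable per length. Summed FPKM was 574782 and 617668 in H2O2-treated libraries 1 and 2, against 695838 and 660860 in control libraries 1 and 2. Read depth is unknown because the table holds no counts. Colon epithelial identity was mixed by marker: KRT8, KRT18, EPCAM and VIL1 were at or above 67.7 FPKM in every library, while KRT20, CDH17 and LGALS4 were below 1 FPKM in every library. Whether libraries of one group are separate cultures is not stated, so the p-values take in no more than the spread seen among these 4, part or all of which may be technical. Less RNA per cell and fewer cells that express a gene cannot be told apart in bulk RNA.

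In FPKM as deposited, H2O2-treated cells had somewhat lower levels of many RBM genes. After the libraries were rescaled to a common total (TPM) the median log2 change of tested RBM genes was -0.01, and that of all genes 0.149. As deposited, RBM14, RBM47 and RBM23 had an unadjusted limma p under 0.05, and no RBM gene passed the test adjusted over all genes. Most RBM genes were expressed: 33 of 38 reached 1 FPKM in at least 2 of the 4 libraries and were tested, and 14 averaged at least 30 FPKM. Of the 33, 27 had a negative log2 change, or 81.8% against 54.3% of all genes, and 6 a positive one, with a range of -0.74 to 0.15. In 16 of the 33, or 48.5%, both treated libraries lay below both controls, against 24.0% of the 11318 genes tested, and in 0 of 33 did both lie above, against 19.3%. The median log2 change was -0.19 for the tested RBM genes and -0.03 for all genes tested. Changes are on the log2(FPKM + 1) scale, H2O2-treated minus control, which understates the change of low genes.

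By limma, a linear model fitted across all genes, 0 of 33 RBM genes had an adjusted p under 0.05, as did 0% of all genes. At an unadjusted p under 0.05, 3 RBM genes were lower, or 9.09% of those tested against 4.91% of all genes, and 0 were higher, against 6.22%. The count of 3 was 1 without control 1, against 2.02% of all genes, and 0 without control 2, against 0.875%. It was 9 without H2O2-treated 1, against 8.33% of all genes, and 2 without H2O2-treated 2, against 11.4%. With 2 libraries against 2, an exact two-sided permutation test of a single gene cannot go below 0.333. Rescaling the libraries to a common total (TPM) added 0.178 to the median change over all genes. The split of RBM genes whose groups do not overlap, 16 lower and 0 higher, became 6 lower and 5 higher after that rescaling, against 8.34% lower and 36.1% higher of all genes. With upper-quartile scaling it was 12 lower and 4 higher, against 16% and 26.1% of all genes. Negative changes numbered 18 of 33 after rescaling to TPM. Relative to the median of all genes, the RBM median was -0.16 as deposited and -0.08 after quantile or cyclic loess normalization; rescaling to TPM, which moves all genes of a library alike, left it at -0.16.

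**Figure D1:**
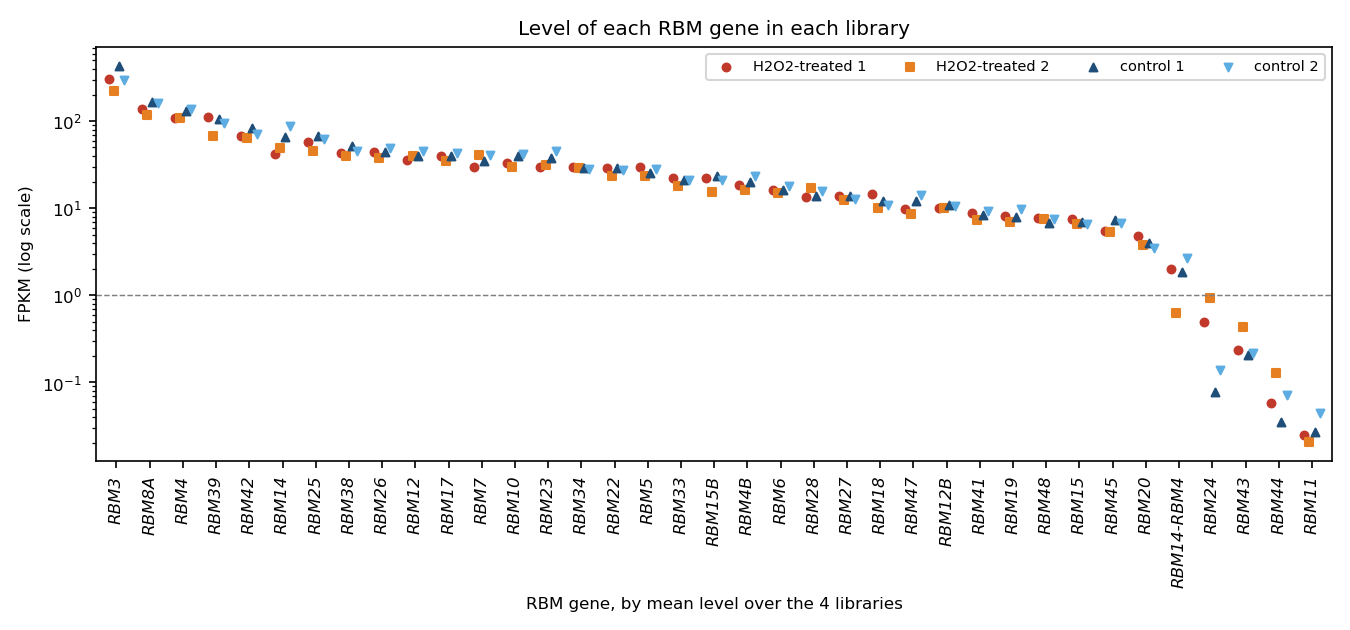
Level of each RBM gene in each library, in FPKM on a log axis, with genes ordered by their mean over the 4 libraries and the dashed line at 1 FPKM. RBM3 stands highest in each library, and RBM24, RBM43, RBM44 and RBM11 lie below 1 FPKM throughout; RBM46 was listed at 0 in all 4 libraries and is not drawn.

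RBM14, a coactivator of transcription that also sits in nuclear paraspeckles, had the largest change. It stood at 42.0 and 48.7 FPKM in H2O2-treated libraries 1 and 2, against 66.5 and 87.8 FPKM in control libraries 1 and 2. Both treated libraries were below both controls, and the gap between groups was about as wide as that between the controls. Means were 45.4 ± 4.74 FPKM in treated cells and 77.1 ± 15.1 FPKM in control cells (SD, n = 2 in each group here and below). The log2 change was -0.74 ± 0.20 (SE), with a limma p of 0.00899 and an adjusted p of 0.311. RBM14 lies at chromosome 11, 66616582 to 66627347 on the plus strand (hg38), where the readthrough gene RBM14-RBM4 starts inside it.

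RBM4 and RBM4B, closely related regulators of alternative splicing and translation, are neighbours of RBM14, and both were lower as well. RBM4 had 108 and 109 FPKM in treated cells, against 129.6 and 137 FPKM in control cells. RBM4B had 18.6 and 16.3 FPKM in treated cells, against 20.1 and 23.8 FPKM in control cells. In each of the 2 genes the groups did not overlap, with log2 changes of -0.29 ± 0.16 and -0.31 ± 0.18 (SE; limma adjusted p = 0.572 and 0.587). After rescaling to TPM their changes were -0.11 and -0.14, and the groups overlapped. RBM14-RBM4 had 1.98 and 0.636 FPKM in treated cells, against 1.85 and 2.69 FPKM in control cells, so its groups overlapped (log2 change -0.56 ± 0.33, SE; limma adjusted p = 0.598). In GENCODE release 29, 72.6% of the 50-base words in RBM14-RBM4 transcripts also occur in another gene, as do 22.5% of those of RBM4, 9.43% of those of RBM14 and 5.46% of those of RBM4B. RBM4 and RBM4B also share 590 exonic bases on opposite strands. The libraries keep strand, but the strand setting of the counting is not given in the sources used here, so the division of reads among these 4 genes is uncertain.

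RBM23, a paralogue of the splicing factor RBM39, was lower in both treated libraries than in both controls, by about the gap between the controls. It had 29.7 and 31.1 FPKM in treated cells, against 38.4 and 45.9 FPKM in control cells, a log2 change of -0.45 ± 0.17 (SE). The limma p was 0.0363 and the adjusted p 0.423. Promoter stretches before the annotated starts of RBM14 and RBM23, 2 of the 3 genes with a limma p under 0.05, are printed here. They are RefSeq sequences on GRCh38.p14, 5′ to 3′ on the strand of the gene, and end where the GENCODE gene begins: chr11:66616380-66616581 on the plus strand for RBM14 (202 bases, 65.8% G or C) and chr14:22919185-22919399 on the minus strand for RBM23 (215 bases, 49.3% G or C). Capitals mark matches to any of 7 motifs searched on both strands.
RBM14: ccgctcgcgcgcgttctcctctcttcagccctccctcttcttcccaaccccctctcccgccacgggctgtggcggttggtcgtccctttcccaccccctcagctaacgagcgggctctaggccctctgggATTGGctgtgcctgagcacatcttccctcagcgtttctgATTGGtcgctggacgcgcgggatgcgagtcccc
RBM23: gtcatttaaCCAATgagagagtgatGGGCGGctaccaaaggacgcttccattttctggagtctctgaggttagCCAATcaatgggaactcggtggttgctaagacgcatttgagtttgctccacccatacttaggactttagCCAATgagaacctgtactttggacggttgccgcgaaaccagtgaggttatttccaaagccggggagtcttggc
In these stretches RBM14 holds 2 and RBM23 holds 3 copies of the CCAAT box, read as CCAAT or as ATTGG on the other strand, and RBM23 holds 1 GC box.

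The motifs were the TATA box TATAAA, the CCAAT box CCAAT, the GC box GGGCGG, the ETS motif CCGGAAG, the cAMP response element TGACGTCA, the AP-1 motif TGACTCA and the E box CACGTG, none of which contains another. Promoters were at hand for 34 of the 38 RBM genes, all but RBM12B, RBM39, RBM43 and RBM48. In the 250 bases before the start, CCAAT occurred in 20 of 34 RBM genes, or 58.8%, against 34.5% of 14677 promoters of genes in the table. RBM14 and RBM14-RBM4, both among the 20, have annotated starts at 66616582 and 66616626, so much the same bases may be counted for both. The GC box occurred in 58.8% of RBM promoters and 56.8% of all, the cAMP response element in 8.8% and 2.3%, and TATAAA in 5.9% and 9.0%. Of the tested RBM genes with a promoter entry, CCAAT was present in 11 of the 15 whose treated libraries both lay below the controls. It was present in 7 of the 15 whose groups overlapped. RBM14 is in the former class and RBM14-RBM4 in the latter. The motif counts are matches of letters, chosen for search after the values were seen, and say nothing of binding. Median G and C content was 62.4% in RBM promoters and 62.4% in all.

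RBM47, which steers splicing in epithelial cells and serves as a cofactor of C-to-U editing of APOB mRNA, was also lower. It had 9.81 and 8.57 FPKM in treated cells, against 12.3 and 14.4 FPKM in control cells. The groups did not overlap, and the log2 change was -0.49 ± 0.18 (SE), with a limma p of 0.0300 and an adjusted p of 0.411. Of its editing partners, the deaminase gene APOBEC1 was listed at 0 except for 0.0981 FPKM in treated library 2. The cofactor A1CF had 0.753 and 1.44 FPKM in treated cells, against 0.382 and 0.785 FPKM in control cells, too low to be tested. SYNCRIP, an RNA-binding protein found with the editing complex, had 133 and 91.5 FPKM in treated cells, against 140 and 144 FPKM in control cells (log2 change -0.36; limma adjusted p = 0.604). APOB itself was at or near 0 in all libraries.

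**Figure D2:**
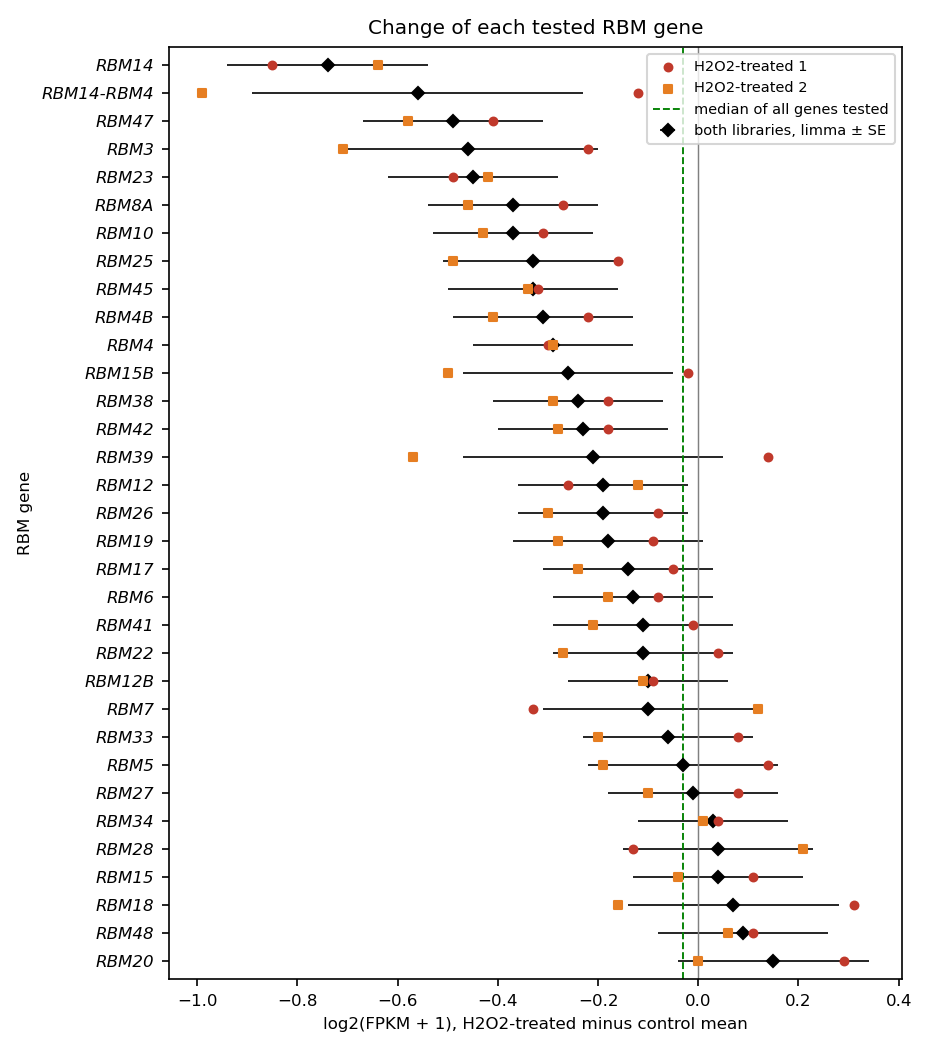
Change of each of the 33 tested RBM genes on the log2(FPKM + 1) scale, H2O2-treated minus the control mean, with the limma estimate and its SE (diamonds) and each treated library by itself. Treated library 2 lies to the left of treated library 1 in 27 of the 33 genes, and the dashed line is the median of all genes tested, -0.03.

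Between the 2 treated libraries, most RBM genes differed in the same direction. The median size of the difference was 0.19 in log2 for tested RBM genes, against 0.27 for all genes tested. Between the 2 controls it was 0.14 and 0.15. The level in treated library 2 was below that in treated library 1 in 27 of 33 RBM genes, or 81.8%, against 50.8% of all genes tested. Control library 2 was below control library 1 in 15 of 33, or 45.5%, against 50.5% of all. Measured from the control mean, the median RBM change was -0.09 in treated library 1 and -0.28 in treated library 2, while that of all genes was -0.01 and -0.04. In treated library 1, 23 of 33 lay below the control mean, in treated library 2 28 did, and in both together 21 did. Of all 11318 genes tested, the counts were 5794, 6270 and 3816. What sets treated library 2 apart was not tested. Without treated library 1 the groups failed to overlap in 27 RBM genes that were lower, against 43.4% of all genes. Without treated library 2 they did so in 18 that were lower and 9 that were higher, against 41.8% and 38.8% of all genes.

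Among spliceosome components and splice-site selectors, 7 of 8 had a negative change, 4 of 8 after rescaling to TPM, and in 4, against 24.0% of all genes, both treated libraries lay below both controls. RBM39, a splicing factor that indisulam-type drugs mark for degradation, had 111 and 67.1 FPKM in treated cells, against 106 and 94.6 FPKM in control cells. The groups overlapped: treated library 1 was the highest of the 4 and treated library 2 the lowest, so the log2 change of -0.21 ± 0.26 (SE; limma adjusted p = 0.813) was 0.14 without treated library 2. RBM25, which favours the pro-apoptotic splice form of BCL2L1, had 58.0 and 45.8 FPKM in treated cells, against 67.5 and 62.4 FPKM in control cells. RBM42, a partner of hnRNP K, had 67.8 and 63.5 FPKM in treated cells, against 82.9 and 71.9 FPKM in control cells. In both of these the treated libraries were the lower ones (log2 change -0.33 and -0.23; limma adjusted p = 0.587 and 0.670). After rescaling to TPM their changes were -0.14 and -0.05, and the groups overlapped. RBM17, which acts at the 3′ splice site, had a log2 change of -0.14, and RBM22, a protein of the catalytic core, one of -0.11. RBM41 and RBM48, both tied to the minor spliceosome, had log2 changes of -0.11 and 0.09. RBM48 had 7.83 and 7.56 FPKM in treated cells, against 6.77 and 7.63 FPKM in control cells, and its groups overlapped as deposited. After rescaling to TPM or upper-quartile scaling, both of its treated libraries lay above both controls.

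The 3 related regulators of apoptotic splicing differed among themselves. RBM10 had 33.0 and 30.1 FPKM in treated cells, against 40.4 and 41.6 FPKM in control cells. Its groups did not overlap and lay further apart than the libraries within each group, with a log2 change of -0.37 ± 0.16 (SE; limma adjusted p = 0.463). RBM5 had 29.8 and 23.5 FPKM in treated cells, against 25.6 and 28.6 FPKM in control cells. RBM6 had 16.1 and 15.1 FPKM in treated cells, against 16.3 and 18.02 FPKM in control cells. RBM5 spanned its controls on both sides (log2 change -0.03 ± 0.19, SE), and RBM6 lay just below them (-0.13 ± 0.16), and after rescaling to TPM the changes were 0.15 and 0.05. RBM5 and RBM6 lie side by side on chromosome 3 with 456 exonic bases in common on the same strand, whereas RBM10 is on the X chromosome.

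Regulators of splicing with roles in particular tissues included the 2 paralogues RBM24 and RBM38. RBM38, which binds the mRNA of the cell-cycle inhibitor CDKN1A, had 42.9 and 39.7 FPKM in treated cells, against 52.3 and 45.6 FPKM in control cells. Its groups did not overlap, with a log2 change of -0.24 ± 0.17 (SE; limma adjusted p = 0.657). After rescaling to TPM the change of RBM38 was -0.06 and its groups overlapped. In the same libraries CDKN1A was higher in treated cells, at 3.81 and 7.51 FPKM, against 1.46 and 1.25 FPKM in control cells (log2 change 1.44; limma adjusted p = 0.247). RBM20, which controls splicing of the titin gene TTN in heart muscle, had 4.80 and 3.76 FPKM in treated cells, against 3.97 and 3.54 FPKM in control cells. It had the highest log2 change of the tested RBM genes, 0.15 ± 0.19 (SE; limma adjusted p = 0.829), and overlapping groups as deposited. Both of its treated libraries lay above both controls after rescaling to TPM or upper-quartile scaling.

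RBM24, a muscle splicing factor, was too low to enter the test. It had 0.498 and 0.932 FPKM in treated cells, against 0.0786 and 0.141 FPKM in control cells. Both treated libraries were above both controls, yet no library reached 1 FPKM. With no filter on low values the log2 change was 0.62, with a limma p of 0.0139 and an adjusted p of 0.362. Of 6 muscle markers, DES had 0.850 and 3.51 FPKM in treated cells, against 0.545 and 0.289 FPKM in control cells, while TTN, MYH6, MYH7, ACTC1 and MYOD1 were at or below 0.0266 FPKM in each library. Their summed level was 0.892 and 3.53 FPKM in treated cells, against 0.552 and 0.305 FPKM in control cells, nearly all of it DES, and its part in the RBM24 result was not tested. The other 4 untested members were the splicing factor RBM11, RBM43, and the germ cell genes RBM44 and RBM46, at or below 0.437 FPKM in each library.

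RBM3, which rises in cooled cells, was the most abundant RBM gene and varied widely within groups. It had 308 and 220.1 FPKM in treated cells, against 433 and 298 FPKM in control cells. Treated library 1 lay above control library 2, so the groups overlapped, and the log2 change was -0.46 ± 0.26 (SE; limma adjusted p = 0.591). It was -0.19 without control 1, -0.73 without control 2, -0.71 without H2O2-treated 1, -0.22 without H2O2-treated 2, -0.28 on the TPM scale and -0.21 with quantile or cyclic loess normalization. CIRBP, the related cold-inducible gene, had 152 and 125 FPKM in treated cells, against 210.3 and 162 FPKM in control cells. Its groups did not overlap, with a log2 change of -0.42 ± 0.21 (SE; limma adjusted p = 0.530). In both genes library 1 was above library 2 within each group.

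RBM8A, the core exon junction protein Y14, was the second most abundant RBM gene and lower in treated cells. It had 137 and 119 FPKM in treated cells, against 168 and 161 FPKM in control cells, with no overlap (log2 change -0.37 ± 0.17, SE; limma adjusted p = 0.500). The change was -0.18 after rescaling to TPM, -0.16 after quantile normalization and -0.14 after cyclic loess, where the groups overlapped. MAGOH, the exon junction partner of RBM8A, had 27.8 and 28.5 FPKM in treated cells, against 42.4 and 46.5 FPKM in control cells. The gap in MAGOH was wider than the spread within either group, with a log2 change of -0.64 ± 0.16 (SE), a limma p of 0.00617 and an adjusted p of 0.306. EIF4A3, the helicase of the complex, had 89.7 and 78.1 FPKM in treated cells, against 114 and 106 FPKM in control cells, while CASC3, its outer subunit, had 33.6 and 23.7 FPKM in treated cells, against 31.3 and 27.8 FPKM in control cells. Of 16 exon junction and nonsense-mediated decay genes, all tested, 15 had a negative change, 3 were lower and 0 higher at a limma p under 0.05, against 4.91% and 6.22% of all genes. In 10 both treated libraries lay below both controls, against 24.0% of all genes and 40.2% of those at 30 FPKM or more. After rescaling to TPM 9 of the 16 had a negative change. In 5 both treated libraries then lay below both controls, against 8.34% of all genes. The 3 were MAGOH, the disassembly factor PYM1 (log2 change -0.42) and the endonuclease SMG6 (-0.45), none of them past the test adjusted over all genes. Over the 16 genes the median log2 change was -0.21.

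**Figure D3:**
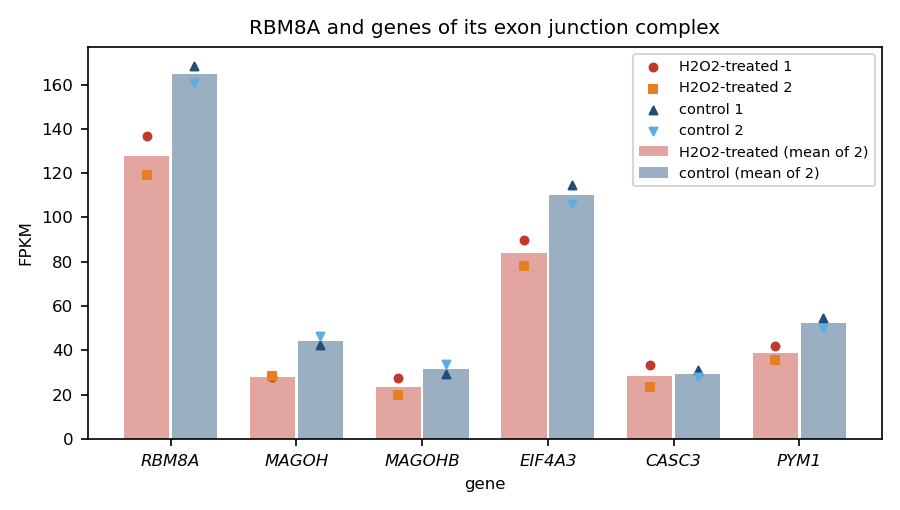
FPKM of RBM8A and 5 genes of or tied to its exon junction complex, with the mean of the 2 libraries of each group as bars and each library as a point. Treated libraries lie below both controls in RBM8A, MAGOH, MAGOHB, EIF4A3 and PYM1, and overlap them in CASC3.

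Neither adaptor of RNA methylation had groups that separated as deposited. RBM15 lay higher with no overlap after rescaling to TPM or upper-quartile scaling. RBM15, which guides the m6A methyltransferase to its targets, had 7.45 and 6.62 FPKM in treated cells, against 7.03 and 6.59 FPKM in control cells (log2 change 0.04 ± 0.17, SE). RBM15B, its paralogue, had 22.1 and 15.5 FPKM in treated cells, against 23.6 and 21.4 FPKM in control cells (log2 change -0.26 ± 0.21, SE). In RBM15B treated library 1 lay between the controls and treated library 2 below both. Of 14 other m6A writers, erasers and readers, 0 had a limma p under 0.05, against 4.91% lower and 6.22% higher of all genes. A negative change was seen in 11, or 4 after rescaling to TPM, and the median log2 change was -0.09. The smallest p belonged to WTAP, the regulatory subunit of the writer, at 81.6 and 81.4 FPKM in treated cells, against 94.6 and 100.4 FPKM in control cells, and to the reader YTHDF2 (log2 change -0.26 each).

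The adaptors of the nuclear exosome had small changes. RBM7, which feeds promoter-derived and enhancer RNAs to the exosome, had 30.01 and 41.1 FPKM in treated cells, against 34.7 and 41.3 FPKM in control cells, with overlapping groups. RBM26 and RBM27, linked to decay of polyadenylated nuclear RNA, had log2 changes of -0.19 and -0.01. As deposited, only in RBM26, of these 3, did the groups not overlap. Under the other scalings 0 of the 3 lay lower with no overlap, against 8.34% to 21.1% of all genes. After rescaling to TPM 1 of the 3 lay higher with no overlap, against 36.1% of all genes. RBM27 shares 44.3% of its 50-base words with an annotated readthrough gene, so its value is uncertain. Of 18 exosome genes and adaptors, 16 had a negative change, 8 after rescaling to TPM, and the median log2 change was -0.14. Of these 18, 1 was lower and 0 higher at a limma p under 0.05, against 4.91% and 6.22% of all genes. In 10 the groups did not overlap and were lower, and in 2 higher, against 24.0% and 19.3% of all genes. Of genes at 30 FPKM or more, 40.2% lay lower with no overlap. After rescaling to TPM, 2 of the 18 lay lower and 3 higher with no overlap, against 8.34% and 36.1% of all genes. The 1 with a limma p under 0.05 was PABPN1, the nuclear poly(A)-binding protein. It had 132 and 107 FPKM in treated cells, against 173 and 174 FPKM in control cells. RBM33, an export factor, had a log2 change of -0.06.

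Groups overlapped in each of the 3 nucleolar members as deposited. After rescaling to TPM, 1 of the 3 lay higher with no overlap, against 36.1% of all genes. So did 1 with upper-quartile scaling (26.1% of all genes), quantile normalization (18.1%) and cyclic loess (20.2%). RBM34 had 29.6 and 29.1 FPKM in treated cells, against 29.1 and 28.5 FPKM in control cells, a log2 change of 0.03 ± 0.15 (SE). RBM28 had 13.4 and 17.3 FPKM in treated cells, against 13.8 and 15.8 FPKM in control cells (log2 change 0.04). RBM19, which acts in ribosomal RNA processing, had a log2 change of -0.18. RBM34 shares 49.6% of its 50-base words with other genes, mostly its neighbour ARID4B. Of the remaining members, RBM45, known from protein inclusions in motor neurone disease, had 5.52 and 5.42 FPKM in treated cells, against 7.41 and 6.86 FPKM in control cells. Its groups did not overlap (log2 change -0.33 ± 0.17, SE; limma adjusted p = 0.545). RBM12 and RBM12B had changes of -0.19 and -0.10, and RBM18, at 14.5 and 10.2 FPKM in treated cells, against 12.04 and 11.05 FPKM in control cells, one of 0.07 that was -0.16 without treated library 1.

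Abundant RBM genes had the more negative changes, as abundant genes did in the whole table. All 14 that averaged at least 30 FPKM had a negative change, with a median of -0.27, and in 11, or 78.6%, the groups did not overlap. Of 3181 genes tested in that range, 74.7% had a negative change, the median was -0.16, and 40.2% lay lower with no overlap. Below 30 FPKM, 13 of 19 RBM genes had a negative change, the median was -0.10, and 5, or 26.3%, lay lower with no overlap, against 46.3%, 0.02 and 17.6% of all such genes. No test was made that sets the RBM genes apart from genes of like level.

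**Figure D4:**
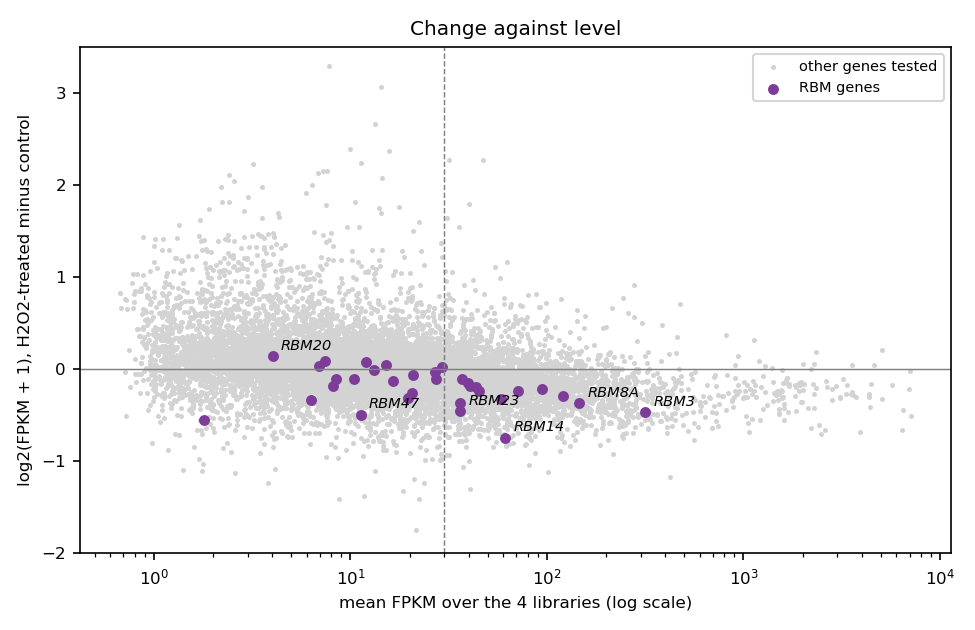
Change on the log2(FPKM + 1) scale, H2O2-treated minus control, against mean FPKM over the 4 libraries on a log axis, for the 33 tested RBM genes and the other genes tested. RBM genes to the right of the dashed line at 30 FPKM all lie below 0, and genes of that range have a median change of -0.16.

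The order of the groups held under each scaling of the libraries in only some of these genes. In 5 RBM genes, RBM10, RBM14, RBM23, RBM45 and RBM47, both treated libraries lay below both controls as deposited and under 4 other scalings: TPM, upper quartile, quantile and cyclic loess. The same held for 895 genes in all, or 7.91% of those tested. The share of RBM genes lower with no overlap was 18.2% after rescaling to TPM, against 8.34% of all genes, and 33.3% after cyclic loess, against 19.3% of all. Leaving out the 10 tested RBM genes that share over 5% of their 50-base words with another gene left 10 of 23 lower with no overlap. That was 43.5%, against 24.0% of all genes as deposited, and the median was -0.18.

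**Figure D5:**
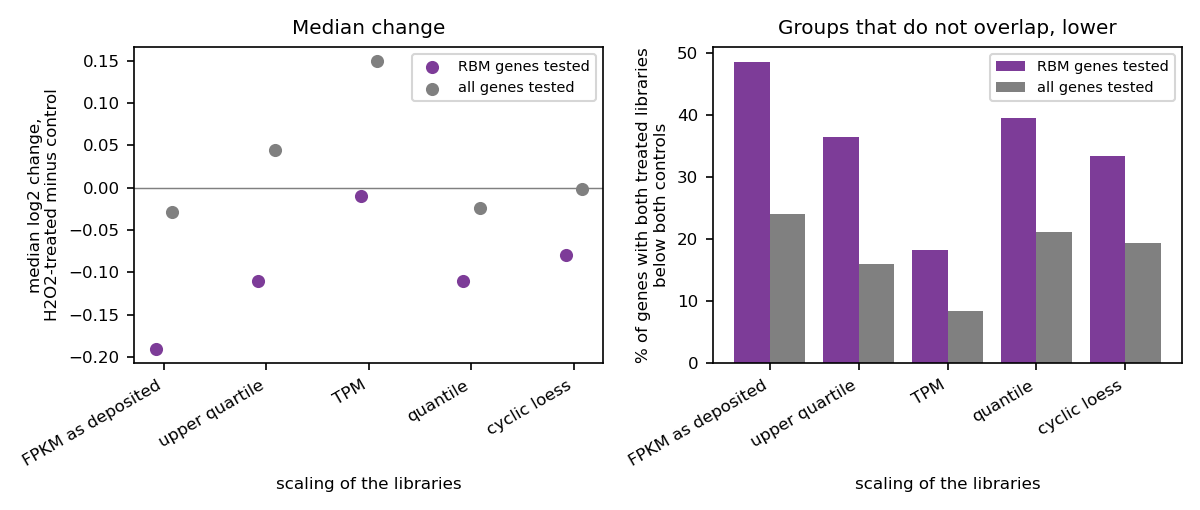
Median log2 change, H2O2-treated minus control (left), and percentage of genes with both treated libraries below both controls (right), for the tested RBM genes and for all genes tested under 5 scalings of the libraries. The RBM median was -0.19 as deposited and -0.01 after rescaling to TPM, where the median of all genes was 0.149.

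Relatives that the name rule leaves out had changes of both signs. RBMX, a splicing protein of the hnRNP G family, had 264 and 214 FPKM in treated cells, against 418 and 309 FPKM in control cells and a log2 change of -0.60 ± 0.22 (SE), with a limma p of 0.0354 and an adjusted p of 0.423. RBMS2, which binds A- and U-rich RNA, had 9.92 and 9.93 FPKM in treated cells, against 6.97 and 5.62 FPKM in control cells and a log2 change of 0.59 ± 0.18 (SE), with a limma p of 0.0156 and an adjusted p of 0.351. Groups did not overlap in either gene. RBMX has near-identical retrocopies, so its value is uncertain. Of 17 relatives, 11 were tested, and 1 was lower and 1 higher at a limma p under 0.05, against 4.91% and 6.22% of all genes. The median log2 change was -0.16, with 7 of 11 negative. After rescaling to TPM it was 0.02, with 5 of 11 negative. There 2 lay lower and 3 higher with no overlap, against 8.34% and 36.1% of all genes. Of 10 genes of the minor spliceosome, which RBM41 and RBM48 serve, 0 had a limma p under 0.05, against 4.91% lower and 6.22% higher of all genes. A negative change was seen in 8, or 6 after rescaling to TPM, and the median was -0.22. The smallest p belonged to SNRNP25 (log2 change -0.65) and SNRNP35 (-0.32).

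Markers of other cell types ranged from 0 to 18.4 FPKM. PTPRC and CD3E of leukocytes, COL1A2 and COL3A1 of fibroblasts, CDH5 and KDR of endothelium and HBB of red cells were at or below 0.0404 FPKM in each library. HBA1 of red cells had 3.83 and 9.64 FPKM in treated cells, against 3.496 and 6.711 FPKM in control cells, and LUM and COL1A1 of fibroblasts reached 6.94 and 3.16 FPKM. LYZ, a leukocyte marker, had 4.41 and 18.4 FPKM in treated cells, against 2.95 and 4.43 FPKM in control cells. CD68, LYZ, THY1 and TIE1 had positive changes, and CD68 stood at 7.66 and 17.7 FPKM in treated cells, against 1.92 and 1.83 FPKM in control cells. Summed FPKM of the 5 leukocyte markers was 12.1 and 36.1 in treated cells, against 4.87 and 6.28 in control cells. That of the 6 fibroblast markers was 4.70 and 11.96 in treated cells, against 4.72 and 9.38 in control cells, and that of the 5 endothelial markers 2.67 and 2.02 in treated cells, against 0.360 and 0.222 in control cells. Of the 9 colon epithelial markers, CDH1 had a log2 change of 0.64 and VIL1 one of -0.45, the 2 with a limma p under 0.05. The part of any of these in the RBM values was not tested.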

How the data were processed

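A directional kit was used on total RNA, per the labels' protocols. STAR 2.5 (read alignment), Cufflinks 2.2.1 (transcript abundance) and the build hg38 are listed in the submitters' processing notes. Those sources name no annotation, filter or strand setting. The authors deposited FPKM, 1 value per gene and library, for 19389 protein-coding genes. These are estimates, reads shared between genes being split by a model, and with no counts the depth and its precision are unknown.

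Of the log2(FPKM + 1) values, those of the 11318 genes that reached 1 FPKM in 2 or more libraries were tested by limma 3.58.1 in R 4.3.3. The model had group as its only term and a variance trend with abundance, leaving 2 residual degrees of freedom (6.28 with the shared variance), and was two-sided, with Benjamini-Hochberg adjustment over all genes. It was tested on simulated data. Groups were said not to overlap where both treated libraries lay on 1 side of both controls. RBM genes were matched to GENCODE release 29 by identifier, 38 of 38, and 50-base words shared between its transcripts were counted. Promoters are RefSeq, GRCh38.p14. Figures used Python 3.11.15 and matplotlib 3.10.9.

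The RBM genes, the lists and the tests were chosen with earlier results of these data known. Members named with values were those with a limma p under 0.05, the 5 largest changes in each direction, the 3 most abundant and 11 chosen for their role; other members and partner genes with values in each library were chosen after their values were seen. From each list up to 4 genes with a limma p under 0.05 were named, or the 2 with the smallest p. Alternatives were other pseudocounts, filters and scalings, each library left out, a replicate block and no variance trend. Some marker and partner genes of the lists are not reported here.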

Additional observations from a re-analysis of the deposited data

How the results depend on the processing

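Of 14 alternatives planned and 1 chosen after seeing the data, those not given here kept each count of RBM genes within 1.5 times, and the median within the spread between libraries. With no filter on low values, 6 of 37 RBM genes were lower at a limma p under 0.05, against 3.82% of all genes, and 1 was higher. In that setting 2 lay higher with no overlap between groups, against 23.6% of all genes. Rescaling to TPM gave a median log2 change of -0.01 and 1 gene lower at a limma p under 0.05, against 1.13% of all genes. There 6 lay lower and 5 higher with no overlap, against 8.34% and 36.1% of all genes. RBM genes higher with no overlap numbered 4 with upper-quartile scaling, against 26.1% of all genes. They numbered 1 after quantile normalization, against 18.1%, and 1 after cyclic loess, against 20.2%. The median after cyclic loess was -0.08. Without genes that share over 5% of their 50-base words with another gene, 10 of 23 lay lower with no overlap. That was 43.5%, against 24.0% of all genes. Leaving out 1 library in turn gave medians of -0.28 to -0.09, 0 to 9 genes lower and 0 higher at a limma p under 0.05, 18 to 27 lower and 1 to 9 higher with no overlap, and 0 with an adjusted p under 0.05; the lone library of a group is there assumed to vary like the other group.

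With the replicate number as a block, 6 RBM genes were lower at a limma p under 0.05, against 9.8% of all genes. In that setting 1 RBM gene, RBM14, had a limma adjusted p under 0.05 (0.0199), where 587 of the 11318 genes tested did. The numbers are not known to pair the libraries: the deviations of libraries with the same number had r = 0.451 across genes, which are not independent, but there are 2 pairs only.

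Of the 33 tested RBM genes, 13 turned sign under at least 1 of those 14 alternatives and 20 under none. After rescaling to TPM the log2 change was 0.17 for RBM27, 0.15 for RBM5, 0.12 for RBM33, 0.08 for RBM7, 0.07 for RBM12B and RBM22, 0.06 for RBM41, 0.05 for RBM6 and 0.04 for RBM17. With upper-quartile scaling it was 0.07 for RBM27, 0.05 for RBM5 and 0.02 for RBM33, after quantile normalization 0.01 for RBM5 and -0.02 for RBM15, and after cyclic loess 0.04 for RBM5 and 0.0031 for RBM27. With 1 library left out, RBM5 ranged from -0.19 to 0.14, RBM7 from -0.33 to 0.12, RBM15 from -0.04 to 0.11, RBM18 from -0.16 to 0.31, RBM22 from -0.27 to 0.04, RBM27 from -0.10 to 0.08, RBM28 from -0.13 to 0.21, RBM33 from -0.20 to 0.08 and RBM39 from -0.57 to 0.14. The cause was not tested. With no counts, what depth limits cannot be given.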
